A study of Mus musculus with 6 samples.

Results

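The 10 genes described here encode the neuregulin and epidermal growth factor (EGF) ligands, their ErbB receptors and 1 inhibitor of those receptors. They were taken by symbol from count tables that list 32245 gene symbols, and all 10 were found. Of these, 5 encode ligands (Nrg1, Hbegf, Ereg, Btc and Areg), 4 encode receptors (Egfr, Erbb2, Erbb3 and Erbb4), and Errfi1 encodes the feedback inhibitor.

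Polyadenylated RNA was sequenced from primary cardiomyocytes of wild type newborn mouse hearts in 3 groups of 2 libraries. The PBS group received phosphate-buffered saline, the BMP2 group received the growth factor BMP2, and the BMP2+DM group received BMP2 together with dorsomorphin (DM), a small molecule that blocks BMP receptor kinases and is also known to inhibit AMP-activated protein kinase. No group received dorsomorphin alone. The sources used here give no strain, dose, duration or number of animals per culture. The labels do not say whether replicates came from separate cultures, so p-values measure only the spread between these samples, which may be technical.

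EGF-family ligands are made as membrane-anchored precursors that metalloproteases release from the cell surface. A bound ligand joins receptors into pairs, whose kinases signal through the RAS-ERK and PI3K-AKT pathways. ErbB2 binds no ligand itself and serves as a partner, ErbB3 binds neuregulin but has little kinase activity, and ErbB4 binds neuregulin and is an active kinase. In the heart, neuregulin-1 is made mainly by endothelial and endocardial cells and acts on ErbB4 and ErbB2 of cardiomyocytes, a pathway needed for trabeculation and for growth of newborn cardiomyocytes.

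Each library held between 10106667 and 14366042 gene counts, and the 10 genes together held 1906 to 3725 counts. Levels are given as CPM, the count scaled to a common library size that was adjusted by the trimmed mean of M-values (TMM). Ribosomal-repeat gene models took 1.31% of the gene counts in PBS 1 and 2.10% in BMP2 1, against 0.0702% to 0.0928% in the other 4. All 10 cardiomyocyte markers checked, among them Myh6 and Tnnt2, were expressed, with a summed level of 23197 to 27897 CPM. Fibroblast markers summed to 9555 to 11062 CPM and endothelial markers to 236 to 425 CPM, so the cultures also held RNA of other heart cells. The neuronal markers Snap25, Th and Stmn2 and the erythroid marker Hba-a2 had no count in any library.

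All 6 libraries were compared in 1 edgeR quasi-likelihood fit over 14378 genes, with Benjamini-Hochberg adjustment over those genes. Areg was too low to be tested, which leaves 9 tested genes. The genes were chosen with earlier results of these data known, so their counts beside all tested genes are descriptions. The 3 comparisons share libraries, so their values are set side by side and are not independent of each other. With 2 libraries against 2, groups that do not overlap are common: this held for 55.9% of all tested genes in BMP2 against PBS, 50.3% in BMP2+DM against BMP2 and 58.5% in BMP2+DM against PBS.

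BMP2 against PBS asks what BMP2 changes. With BMP2, the ligand genes Nrg1 and Ereg and the receptor gene Erbb2 fell, each to between 70.7% and 74.1% of the PBS level. These were 3 of the 9 tested genes, against 9.29% of all tested genes called lower and 15.8% called in either direction. No tested gene of the family was called higher by edgeR (0 at unadjusted p under 0.05, and 0 by DESeq2), against 6.55% of all tested genes. The median log2 fold change of the 9 was −0.27, against 0.00 over all tested genes. These calls were near the threshold: DESeq2 called only Erbb2, 1 gene was called without PBS replicate 2, BMP2 replicate 1 or BMP2 replicate 2, and 0 without PBS replicate 1. With PBS 1 and BMP2 1 both left out, 1 PBS library is set against 1 BMP2 library. The log2 fold changes of Nrg1, Ereg and Erbb2 were then −0.50, −0.78 and −0.29.

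BMP2+DM against BMP2 asks what changes when dorsomorphin is added to BMP2-treated cells. Here the ligand gene Hbegf and the feedback inhibitor gene Errfi1 fell, to 50.8% and 62.0% of their level with BMP2 alone. They were 2 of the 9 tested genes, against 4.44% of all tested genes called lower and 8.73% called in either direction. None was called higher (edgeR; 1 at unadjusted p under 0.05, and 0 by DESeq2), against 4.28%. The median log2 fold change was −0.20, against 0.00 over all tested genes. With PBS 1 and BMP2 1 both left out, which sets 1 BMP2 library against 2, 0 were called.

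BMP2+DM against PBS shows the distance from untreated cells when both agents were present. Nrg1, Hbegf, Ereg and Errfi1 fell to between 43.6% and 51.8% of the PBS level, Erbb2 fell to 77.0%, and Erbb3 rose 1.62-fold. The 5 falls stand against 11.5% of all tested genes called lower (20.9% in either direction), and the 1 rise of 9 is close to the 9.38% called higher. The median log2 fold change was −0.38, against 0.01 over all tested genes. The 4 genes that fell furthest, Nrg1, Hbegf, Ereg and Errfi1, were called in each of the 13 alternative fits.

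**Figure D1:**
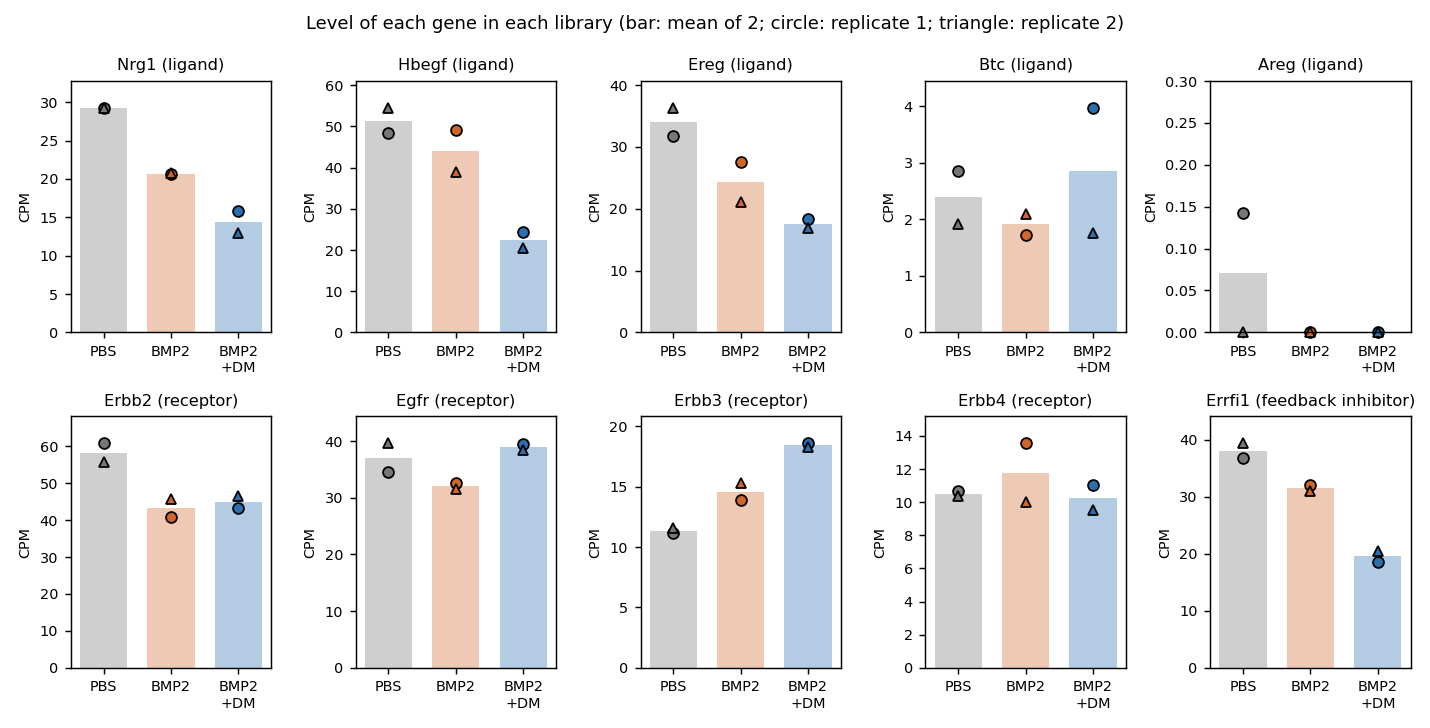
Level of each of the 10 genes in CPM (y axis, from 0, scaled per gene) in the PBS, BMP2 and BMP2+DM groups (x axis). Bars are means of 2 libraries, circles replicate 1 and triangles replicate 2; Nrg1, Ereg and Errfi1 are highest with PBS and lowest with BMP2+DM, and Erbb3 runs the other way.

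Among the ligands, Hbegf encodes heparin-binding EGF-like growth factor, a ligand of EGFR and ErbB4. Its level was 48.3 and 54.5 CPM with PBS, 49.2 and 39.0 CPM with BMP2, and 24.3 and 20.5 CPM with BMP2+DM. Both BMP2+DM libraries lay below all 4 others, while the PBS and BMP2 libraries overlapped. The log2 fold change was −0.98 ± 0.14 (SE) from BMP2 to BMP2+DM (edgeR adjusted p = 0.000226) and −1.20 ± 0.14 from PBS to BMP2+DM (edgeR adjusted p = 6.3e-06). From PBS to BMP2 it was −0.22 ± 0.13, with a 95% interval of −0.50 to 0.06, and did not pass the test. That value was −0.06 without BMP2 replicate 2, −0.13 without PBS replicate 2, −0.39 without BMP2 replicate 1 and −0.48 without PBS 1 and BMP2 1. Without PBS 1 and BMP2 1, the dorsomorphin change was −0.80 (edgeR adjusted p = 0.0563) and no longer passed.

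Nrg1 encodes neuregulin-1, the ligand of ErbB3 and ErbB4. Its gene spans 1069479 bases of chromosome 8 (31814551 to 32884029, minus strand, mm10), with 18 annotated transcripts, which gene counts do not separate. The level was 29.2 and 29.3 CPM with PBS, 20.6 and 20.7 CPM with BMP2, and 15.9 and 12.9 CPM with BMP2+DM. The 3 groups did not overlap, and each lay below the one before it. The log2 fold change was −0.50 ± 0.15 with BMP2 against PBS (edgeR adjusted p = 0.0282) and −1.02 ± 0.15 with BMP2+DM against PBS (edgeR adjusted p = 9.33e-05). From BMP2 to BMP2+DM it was −0.52 ± 0.16, with edgeR adjusted p = 0.0502, just short of the threshold, which it passed without BMP2+DM replicate 1 (−0.68, adjusted p = 0.0418), with no low-count filter (0.0476) and with ribosomal-repeat models left out (0.0468). It did not pass in the other 10 alternatives, with the smallest change, −0.38 (adjusted p = 0.309), without BMP2+DM replicate 2. The BMP2 change stayed at −0.50 under every library left out, which follows from the near-equal replicates of the PBS and BMP2 groups. Its call was lost without any 1 of the PBS or BMP2 libraries, and with DESeq2 (adjusted p = 0.0656).

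The summed level of endothelial markers, like that of Nrg1, was highest with PBS and lowest with BMP2+DM. It was 415 to 425 CPM with PBS, 371 to 374 CPM with BMP2 and 236 to 250 CPM with BMP2+DM. At the BMP2 step the markers did not move together, so the sum does not stand for each marker. From PBS to BMP2, mean Emcn went from 56.5 to 29.1 CPM and mean Kdr from 15.3 to 23.7 CPM. The other 8 were not called, and the list's median log2 fold change was −0.13. Of 10 markers, all tested, 1 rose (Kdr, 0.63 ± 0.19 on the log2 scale, not called by DESeq2) and 1 fell with BMP2, 5 fell from BMP2 to BMP2+DM and 7 fell from PBS to BMP2+DM, among them Emcn (−1.75 ± 0.14 on the log2 scale) and Ptprb (−1.24 ± 0.09). No marker of that list was at 0. Beside the counts of this and the later marker lists stand the shares of all tested genes called in either direction. They were 15.8% with BMP2, 8.73% from BMP2 to BMP2+DM and 20.9% from PBS to BMP2+DM. The part of the endothelial change in the Nrg1 result was not tested. In bulk RNA, fewer cells of a type and less RNA per cell cannot be told apart.

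Ereg encodes epiregulin, a ligand of EGFR and ErbB4. Its level was 31.7 and 36.3 CPM with PBS, 27.6 and 21.1 CPM with BMP2, and 18.4 and 16.8 CPM with BMP2+DM. The groups did not overlap, with PBS the highest and BMP2+DM the lowest. Ereg changed by −0.48 ± 0.15 (log2) with BMP2 (edgeR adjusted p = 0.0409) and −0.95 ± 0.16 from PBS to BMP2+DM (edgeR adjusted p = 0.000252). From BMP2 to BMP2+DM it was −0.47 ± 0.16 (edgeR adjusted p = 0.0855), short of the threshold, which it passed without BMP2 replicate 2 (−0.65, adjusted p = 0.0484). It was −0.26 both without BMP2 replicate 1 (adjusted p = 0.525) and without PBS 1 and BMP2 1 (0.571). The BMP2 call was lost with DESeq2 (adjusted p = 0.0796), without PBS replicate 1 (0.0752), PBS replicate 2 (0.274) or BMP2 replicate 2 (0.344), where the change was −0.30. Without PBS 1 and BMP2 1 it was −0.78 (adjusted p = 0.0864).

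In mm10, Ereg occupies chromosome 5 from 91074622 to 91093646 (plus strand). An antisense gene model, Gm19610, shares 141 of its exonic bases, or 3.42%, and without strand-resolved counting reads there cannot be told apart. Gm19610 had 35 and 49 counts with PBS, 38 and 28 with BMP2, and 6 and 14 with BMP2+DM. For Nrg1, the opposite-strand model Gm26578 covers 4.66% of exonic bases, and for Erbb2 the neighbour Mien1 covers 9 bases.

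Epiregulin and HB-EGF are also known products of macrophages and of epithelial cells, so those markers are given here. Leukocyte markers summed to 94.2 to 94.9 CPM with PBS, 70.4 to 70.9 CPM with BMP2 and 63.6 to 65.7 CPM with BMP2+DM. Of 10, 5 were tested, of which 1 fell with BMP2 (Lyz2, −0.64 ± 0.11), 1 fell from BMP2 to BMP2+DM (Csf1r, −0.63 ± 0.17, not called by DESeq2) and 2 fell from PBS to BMP2+DM. Lyz2 made up most of the sum, with means of 58.5 CPM with PBS, 37.5 CPM with BMP2 and 38.9 CPM with BMP2+DM. Csf1r means were 16.9, 18.8 and 12.1 CPM in the same order, so the sum does not stand for each marker. The pan-leukocyte marker Ptprc was at 0 to 0.522 CPM. Epicardial and mesothelial markers summed to 247 to 264 CPM, 191 to 196 CPM and 225 to 238 CPM. Of these, 9 of 10 were tested: 1 rose and 5 fell with BMP2, 4 rose and 1 fell from BMP2 to BMP2+DM, and 1 rose and 3 fell from PBS to BMP2+DM. Their part in the Hbegf and Ereg results was not tested.

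Btc encodes betacellulin, another ligand of EGFR and ErbB4, and lies downstream of Ereg on chromosome 5 (91357261 to 91402994, minus strand, mm10). It had 40 and 22 counts with PBS, 19 and 22 with BMP2, and 41 and 18 with BMP2+DM. The libraries of all 3 groups overlapped, and BMP2+DM 1 held more than its replicate by more than any group mean differed. The 95% interval of the log2 fold change from BMP2 to BMP2+DM ran from −0.47 to 1.63, so no direction could be told from these libraries. The BMP2+DM counts of 41 (exact Poisson 95% interval 29.4 to 55.6) and 18 (10.7 to 28.4) differed beyond counting error.

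Areg encodes amphiregulin, an EGFR ligand, and sits between Ereg and Btc (chromosome 5, 91139599 to 91148432, plus strand, mm10). It had 2 counts in PBS 1 (exact Poisson 95% interval 0.242 to 7.22 counts) and 0 in the other 5 libraries. A count of 0 allows up to 3 counts as a one-sided limit, or 0.261 to 0.292 CPM in those libraries, and up to 3.69 counts by the exact Poisson interval used for PBS 1. These limits cover counting error only. The neighbouring genes Ereg and Areg thus differed widely in count within each library.

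Among the receptors, Erbb2 encodes the partner without a ligand of its own (chromosome 11, 98412470 to 98437716, plus strand, mm10). Its level was 60.8 and 55.7 CPM with PBS, 40.7 and 45.7 CPM with BMP2, and 43.3 and 46.5 CPM with BMP2+DM. Both PBS libraries lay above the other 4, and the BMP2 and BMP2+DM libraries overlapped. Erbb2 changed by −0.43 ± 0.11 (log2) with BMP2 (edgeR adjusted p = 0.0122) and −0.38 ± 0.11 from PBS to BMP2+DM (edgeR adjusted p = 0.0222). From BMP2 to BMP2+DM it was 0.06 ± 0.11, with a 95% interval of −0.19 to 0.30. The BMP2 call was lost without PBS replicate 1 (−0.37, adjusted p = 0.129) or BMP2 replicate 1 (−0.35, adjusted p = 0.139), and was −0.29 (adjusted p = 0.415) without both. The BMP2+DM call was lost without PBS replicate 1 (adjusted p = 0.175), PBS replicate 2 (0.0512) or BMP2+DM replicate 1 (0.121), and without PBS 1 and BMP2 1 (0.208).

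Erbb3 encodes the neuregulin receptor with little kinase activity (chromosome 10, 128567523 to 128589652, minus strand, mm10). Its level was 11.1 and 11.6 CPM with PBS, 13.9 and 15.3 CPM with BMP2, and 18.6 and 18.3 CPM with BMP2+DM. It was the 1 gene of the family with its groups in that ascending order and without overlap. Erbb3 rose by 0.70 ± 0.17 (log2) from PBS to BMP2+DM (edgeR adjusted p = 0.00677). Each step alone did not pass: 0.36 ± 0.17 with BMP2 (95% interval −0.0050 to 0.73) and 0.34 ± 0.17 from BMP2 to BMP2+DM (95% interval −0.02 to 0.69). The rise from PBS to BMP2+DM was 0.67 without PBS replicate 1, where edgeR adjusted p = 0.056, and without PBS 1 and BMP2 1 it was 0.67 with adjusted p = 0.0936.

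Erbb3 is also known as a receptor of Schwann cells, so the Schwann cell and neuronal markers are given beside it. They summed to 34.6 to 41.0 CPM with PBS, 43.7 to 44.1 CPM with BMP2 and 50.9 to 59.9 CPM with BMP2+DM, and 3 of 10 were tested. Tubb3 made up most of that sum, at 29.4 to 54.6 CPM, and was the 1 marker called (0.63 ± 0.13 from PBS to BMP2+DM). The Schwann cell marker Sox10 was at 1.84 CPM in BMP2+DM 1 and at 0.143 to 0.435 CPM in the other 5 libraries. Their part in the Erbb3 result was not tested.

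Egfr encodes the receptor for EGF, HB-EGF and other ligands of the family (chromosome 11, 16752203 to 16918158, plus strand, mm10). Its level was 34.5 and 39.6 CPM with PBS, 32.6 and 31.5 CPM with BMP2, and 39.5 and 38.4 CPM with BMP2+DM. The BMP2 libraries were the lowest, and the PBS and BMP2+DM libraries overlapped. No comparison passed the test. The log2 fold change was −0.21 with BMP2 (95% interval −0.47 to 0.06) and 0.28 from BMP2 to BMP2+DM (95% interval 0.02 to 0.54, edgeR adjusted p = 0.199). Fibroblast markers, from cells known to express Egfr, summed to 9555 to 10174 CPM, 10955 to 11062 CPM and 9615 to 9999 CPM in the 3 groups. Of 10, all tested, 3 rose and 4 fell with BMP2, 3 rose and 4 fell from BMP2 to BMP2+DM, and 4 rose and 4 fell from PBS to BMP2+DM. Their part in the Egfr values was not tested.

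Erbb4, the neuregulin receptor of cardiomyocytes, spans 1075874 bases of chromosome 1 (68032186 to 69108059, minus strand, mm10). Its level was 10.6 and 10.4 CPM with PBS, 13.5 and 10.02 CPM with BMP2, and 11.04 and 9.52 CPM with BMP2+DM. All groups overlapped, and none of the comparisons passed. The 95% intervals were −0.27 to 0.60 with BMP2 and −0.64 to 0.25 from BMP2 to BMP2+DM. Cardiomyocyte markers summed to 27524 to 27897 CPM with PBS, 23197 to 23429 CPM with BMP2 and 25085 to 25292 CPM with BMP2+DM. Of 10, 9 fell with BMP2, 3 rose from BMP2 to BMP2+DM and 7 fell from PBS to BMP2+DM. Smooth muscle and pericyte markers, of which all 10 were tested, summed to 4097 to 4131 CPM, 2497 to 2511 CPM and 2576 to 2693 CPM, with 2 rises and 6 falls with BMP2, 3 rises and 2 falls from BMP2 to BMP2+DM, and 2 rises and 5 falls from PBS to BMP2+DM. The erythroid list had no tested member and summed to at most 1.21 CPM. The part of these changes in the receptor values was not tested.

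Errfi1, also called Mig6, encodes a protein that binds the kinase domain of active ErbB receptors and shuts them down; its gene is known to be induced by the signalling it limits. Its level was 36.8 and 39.4 CPM with PBS, 32.1 and 30.9 CPM with BMP2, and 18.6 and 20.5 CPM with BMP2+DM. The 3 groups did not overlap, and the step to BMP2+DM was the larger of the pair. The log2 fold change was −0.69 ± 0.14 from BMP2 to BMP2+DM (edgeR adjusted p = 0.00318) and −0.96 ± 0.13 from PBS to BMP2+DM (edgeR adjusted p = 4.03e-05). From PBS to BMP2 it was −0.27 ± 0.13, with edgeR adjusted p = 0.175. Without PBS 1 and BMP2 1, the dorsomorphin change was −0.66, where edgeR adjusted p = 0.118.

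**Figure D2:**
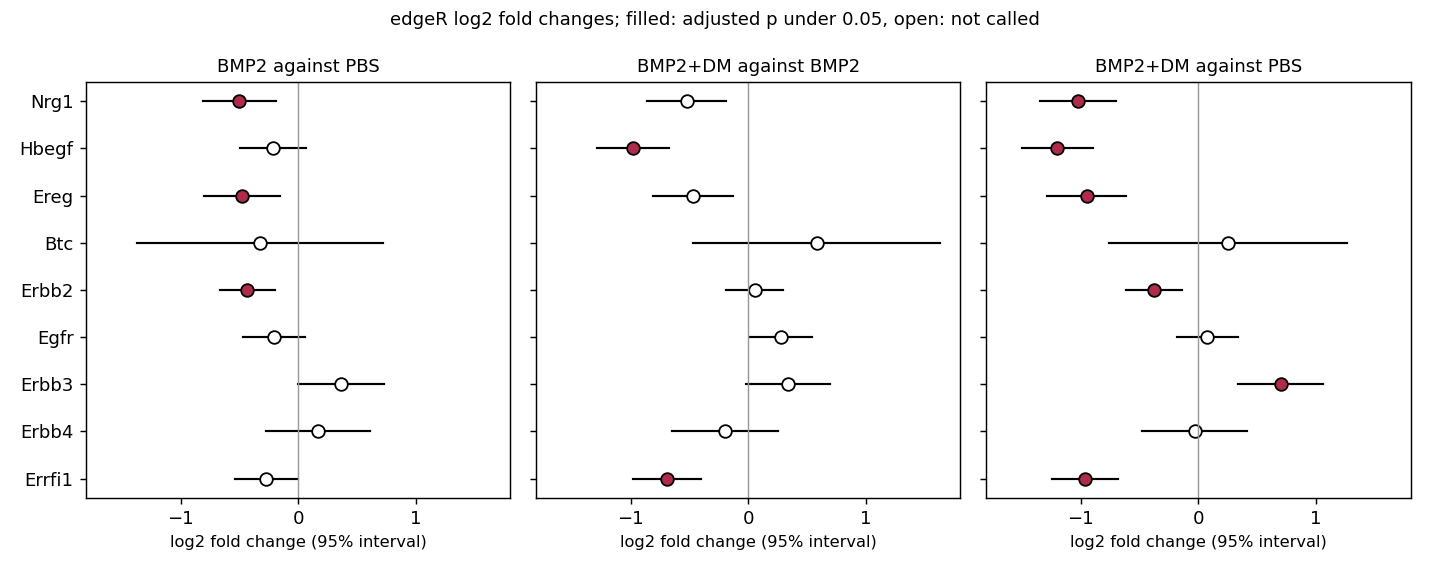
Log2 fold change of the 9 tested genes (rows) in the 3 comparisons (panels), with 95% intervals as lines. Filled points passed an adjusted p of 0.05 and open points did not; Hbegf and Errfi1 are the filled points when dorsomorphin was added, and Btc has the widest intervals.

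RefSeq promoter windows (GRCm38.p6) were at hand for Erbb2, Erbb4, Egfr, Areg, Btc and Errfi1, 6 of the 10. The 250 bases before each start site were searched on both strands. The motifs were GGCGCC, a GC-rich SMAD motif, its known variant GGAGCC, the SMAD-binding core CAGAC, the AP-1 motif TGANTCA, and TGACGTCA, the cAMP response element. No matches overlapped in the windows shown. The promoters shown are those with a match: Errfi1, which fell when dorsomorphin was added, Erbb2, which fell with BMP2, and Areg, which was near 0. Capitals mark the matches, and bases in annotated exons were searched but are not printed. The Errfi1 piece lies at chr4:150854950-150855069 (plus strand) and ends at the second of its start sites. The Erbb2 piece lies at chr11:98412234-98412469 (plus strand) and ends 14 bases before its start site. The Areg piece lies at chr5:91139349-91139598 (plus strand) and ends at its start site.
Errfi1: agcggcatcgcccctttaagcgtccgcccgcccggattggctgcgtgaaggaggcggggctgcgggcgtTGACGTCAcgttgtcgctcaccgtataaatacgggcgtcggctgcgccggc
Erbb2: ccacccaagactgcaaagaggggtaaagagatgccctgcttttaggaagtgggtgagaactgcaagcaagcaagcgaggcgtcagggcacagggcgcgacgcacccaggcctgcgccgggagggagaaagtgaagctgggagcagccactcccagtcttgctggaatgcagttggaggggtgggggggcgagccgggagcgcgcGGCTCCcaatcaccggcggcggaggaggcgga
Areg: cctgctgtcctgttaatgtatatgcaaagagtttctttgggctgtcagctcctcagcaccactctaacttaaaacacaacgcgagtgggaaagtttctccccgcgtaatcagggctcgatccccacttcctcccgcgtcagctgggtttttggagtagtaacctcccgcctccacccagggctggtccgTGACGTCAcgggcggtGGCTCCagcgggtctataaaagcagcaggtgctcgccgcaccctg

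TGACGTCA began 51 bases before the Errfi1 start and 61 bases before the Areg start, and 1.55% of 32851 mouse promoter windows of this length held it. GGAGCC on either strand began 46 bases before the Erbb2 start and 45 bases before the Areg start, against 26.0% of windows. The windows of Erbb4, Egfr and Btc and the other Errfi1 start held none of the 5 motifs. GGCGCC (in 9.59% of windows), the core CAGAC (42.2%) and the AP-1 motif TGANTCA (6.75%) were in none of the 7 windows. A match describes the letters of the window and is not evidence of binding. Areg, with the same motif as Errfi1, was at or near 0 in all 6 libraries, and the part of the motif in the level of either gene was not tested.

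Levels of different genes were compared as CPM per kilobase of annotated exon, a scale that also depends on which isoforms are made. With PBS, Erbb2 (11.2 ± 0.69 CPM per kilobase, SD, n = 2), Hbegf (10.6 ± 0.90) and Errfi1 (10.6 ± 0.50) were the highest and did not differ beyond their spread. Ereg followed at 8.24 ± 0.78, then Egfr at 3.27 ± 0.32, Nrg1 at 2.83 ± 0.0014 and Erbb3 at 1.89 ± 0.051. An SD of 2 libraries can fall below counting error, as it did for Nrg1, and then understates the spread. Its PBS counts of 409 and 336 had exact Poisson 95% intervals of 370 to 451 and 301 to 374. Erbb4, at 0.850 ± 0.017, and Btc, at 0.528 ± 0.15, were the lowest of the tested genes. The receptor that cardiomyocytes are known to use for neuregulin, Erbb4, was thus the lowest of the 4 receptor transcripts in these cultures.

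The order changed between the groups. With BMP2, Hbegf, Errfi1 and Erbb2 (9.13 ± 1.48, 8.80 ± 0.23 and 8.30 ± 0.68 CPM per kilobase) again did not differ beyond their spread, and Erbb3 (2.43 ± 0.16) lay above Nrg1 (1.998 ± 0.0051). With BMP2+DM, Erbb2 (8.62 ± 0.44) stood alone above Errfi1 (5.46 ± 0.38), Hbegf (4.63 ± 0.56) and Ereg (4.26 ± 0.27), of which the last pair did not differ beyond their spread. Erbb3 (3.06 ± 0.038) was then above Nrg1 (1.39 ± 0.20), the reverse of their order with PBS. In CPM, without scaling by exon length, Nrg1 (20.7) lay above Erbb3 (14.6) with BMP2. With BMP2+DM, Erbb3 (18.4 CPM) lay above Nrg1 (14.4 CPM) on that scale too.

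Receptor and ligand transcripts were also described as shares of their own sum within each library, which library size cannot move. Erbb2 made up 66.9% and 63.1% of the receptor sum with PBS, 55.4% and 58.9% with BMP2, and 52.6% and 55.4% with BMP2+DM. Erbb3 made up 10.6% and 11.4%, then 16.4% and 17.0%, then 19.6% and 18.8%. The Erbb2 share was thus highest with PBS, where the Erbb3 share was lowest, and the Erbb3 shares of the 3 groups did not overlap. Egfr held between 17.5% and 22.1% of the receptor sum, and Erbb4 between 4.78% and 7.77%, with the highest value in BMP2 1. These shares are descriptions of each library, with no test.

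Of the ligand sum, Hbegf made up 47.0% and 48.3% with PBS, 52.9% and 51.6% with BMP2, and 42.3% and 42.6% with BMP2+DM. Its share was therefore highest with BMP2 and lowest with dorsomorphin added. Ereg held 32.6% to 40.9% and Nrg1 10.4% to 13.3% of the ligand sum, and the Nrg1 shares of the groups overlapped. From raw counts, without scaling by exon length, Ereg held 25.4% to 32.3% and Nrg1 20.8% to 26.0%. The ligand sum itself was 21.3 and 23.3 CPM per kilobase with PBS, 19.2 and 15.7 with BMP2, and 11.9 and 9.95 with BMP2+DM. The receptor sum was 17.4 and 17.0, then 14.1 and 14.9, then 15.8 and 16.1 CPM per kilobase. The ligand sums of both BMP2+DM libraries lay below those of the other 4, and the receptor sums were highest in the PBS libraries.

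**Figure D3:**
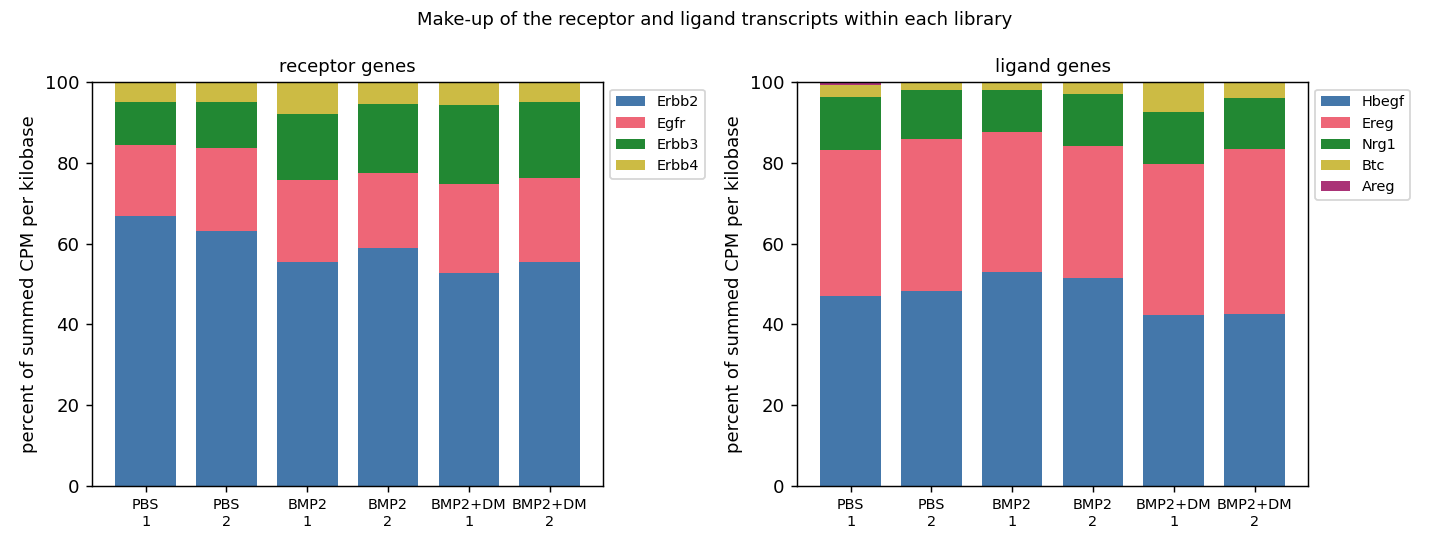
Share of each receptor gene (left) and each ligand gene (right) in the summed CPM per kilobase of its set (y axis, percent) in each of the 6 libraries (x axis). The Erbb2 segment is largest in the PBS libraries, at 63.1% and 66.9%, and the Erbb3 segment is largest in the BMP2+DM libraries, at 18.8% and 19.6%.

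Genes around the receptors were followed in 5 lists, which were chosen with earlier results of these data known. Among the 6 other ligand genes of the family, Egf, Tgfa and Nrg4 could be tested. Epgn and Nrg2 had at most 2 counts in any library, and Nrg3 had none. These 6 genes are outside the ligand sum given above. Tgfa, which encodes the EGFR ligand TGF-alpha, was at 7.82 to 11.8 CPM, and Nrg4 at 8.15 to 11.3 CPM. None of Egf, Tgfa and Nrg4 was called in any comparison (edgeR, with 0 at unadjusted p under 0.05, and 0 by DESeq2).

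Sheddases and their regulators release the ligands, and 11 of 11 were tested. With BMP2, 1 rose and 2 fell: Timp3, an inhibitor of the sheddase ADAM17, rose by 1.25 ± 0.05 on the log2 scale, while the metalloprotease gene Adam9 changed by −0.48 ± 0.05 and Rhbdf1, which encodes the ADAM17 regulator iRhom1, by −0.36 ± 0.10. When dorsomorphin was added, Adam12 and Adam19, both metalloproteases known to cleave ligands of the family, changed by −1.02 ± 0.10 and −0.50 ± 0.06. From PBS to BMP2+DM, 1 rose (Timp3, 1.14 ± 0.05) and 4 fell. Of the 11, 8, 9 and 6 were not called in the 3 comparisons. Over all tested genes, 15.8%, 8.73% and 20.9% were called in either direction. Adam10 and Adam17 were not called with BMP2 (0.08 and −0.11) or when dorsomorphin was added (0.01 and 0.07). The list's medians were −0.11, 0.03 and −0.12 in the 3 comparisons, against 0.00, 0.00 and 0.01 over all tested genes.

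Adaptors and kinases carry the signal below the receptors, and 24 of 24 were tested. With BMP2, 1 rose (Akt1, 0.22 ± 0.05) and none fell (edgeR; 9 at unadjusted p under 0.05, and 0 by DESeq2). When dorsomorphin was added, the docking protein gene Gab1 rose by 0.42 ± 0.08 and the focal adhesion kinase gene Ptk2 changed by −0.30 ± 0.09, a call that DESeq2 did not make. Neither count is above the share of all tested genes called in either direction, 15.8% and 8.73%. From PBS to BMP2+DM, 2 rose and 7 fell, among them Sos1, a RAS activator (0.47 ± 0.11), Map2k1, the ERK kinase MEK1 (−0.36 ± 0.08), and Ptk2 (−0.52 ± 0.09). Those 9 of 24 stand against 20.9% of all tested genes called in either direction. That count of 9 was 3 without PBS replicate 1, 4 without PBS replicate 2 or BMP2+DM replicate 2, 5 without BMP2+DM replicate 1, and 1 without PBS 1 and BMP2 1. The count with BMP2 was 0 without PBS 1 and BMP2 1, 3 without BMP2+DM replicate 1 and 2 without BMP2+DM replicate 2; the count of 2 when dorsomorphin was added was 0 without BMP2 replicate 1 or without PBS 1 and BMP2 1, and 1 without PBS replicate 1, PBS replicate 2 or BMP2 replicate 2. The medians were −0.12, −0.04 and −0.03.

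Negative regulators of ErbB and ERK signalling fell in 2 of 21 tested genes with BMP2, in 1 when dorsomorphin was added and in 9 from PBS to BMP2+DM, with 22 listed. The first pair of counts is near the 9.29% and 4.44% of all tested genes called lower, and the 9 of 21 stands against 11.5%. None rose in these comparisons (edgeR; 2, 0 and 1 at unadjusted p under 0.05, and 0 by DESeq2). The ERK phosphatase genes Dusp6 and Dusp5 changed by −0.68 ± 0.14 and −0.75 ± 0.18 with BMP2. Dusp4, of the same family, changed by −1.28 ± 0.14 when dorsomorphin was added and by −1.22 ± 0.14 from PBS to BMP2+DM. The RAS pathway inhibitor gene Spry4 changed by −0.73 ± 0.17 from PBS to BMP2+DM. The 9 falls were 2 without PBS replicate 2 and 4 without BMP2+DM replicate 2 or without PBS 1 and BMP2 1. The 2 falls with BMP2 were 1 without any 1 of the PBS or BMP2 libraries and 0 without PBS 1 and BMP2 1, and the 1 fall when dorsomorphin was added was 2 without BMP2 replicate 2 or BMP2+DM replicate 2 and 4 without BMP2+DM replicate 1. The medians were −0.07, −0.16 and −0.31.

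Transcripts that growth factor and ERK signalling is known to raise fell most often of the 5 lists, with 19 of 19 tested. Over all tested genes, 9.29%, 4.44% and 11.5% were called lower in the 3 comparisons, and 6.55%, 4.28% and 9.38% higher. With BMP2, 1 rose and 4 fell, among them the cyclin gene Ccnd1 (−0.58 ± 0.07), Myc (−0.70 ± 0.13) and Dusp1 (−0.83 ± 0.16). When dorsomorphin was added, 13 fell and none rose (edgeR; 0 at unadjusted p under 0.05, and 0 by DESeq2), with a median of −0.48. From PBS to BMP2+DM, 15 fell and none rose (edgeR; 0 at unadjusted p under 0.05, and 0 by DESeq2), with a median of −0.92. Hmga2, which encodes a chromatin protein of growing cells, went from 120 and 124 CPM with PBS to 91.3 and 95.3 CPM with BMP2 and 31.9 and 27.2 CPM with BMP2+DM. The urokinase receptor gene Plaur changed by −1.39 ± 0.19 and the ephrin receptor gene Epha2 by −0.77 ± 0.12 when dorsomorphin was added. These genes also respond to many signals other than ErbB receptors. The list was chosen with earlier results of these data known, so its counts beside those of all tested genes are a description only. The 5 calls with BMP2 were 3 without PBS replicate 2 or BMP2 replicate 1 and 1 without PBS 1 and BMP2 1. The 13 falls were 7 without BMP2 replicate 1, 5 without BMP2 replicate 2 or BMP2+DM replicate 1, 8 without BMP2+DM replicate 2, and 3 without PBS 1 and BMP2 1. The 15 falls were 9 without BMP2+DM replicate 2 and 7 without PBS 1 and BMP2 1.

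**Figure D4:**
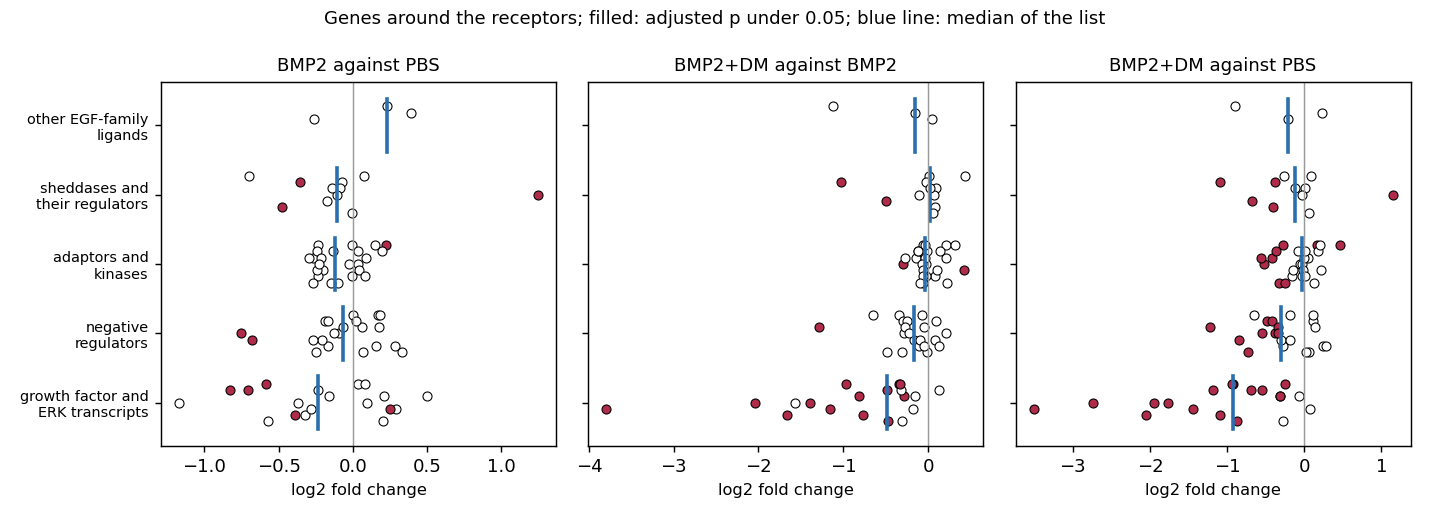
Log2 fold change (x axis, scaled per panel) of each tested gene of the 5 lists (rows) in the 3 comparisons (panels); vertical offsets only separate points. Filled points passed an adjusted p of 0.05 and the blue line is the list's median; the bottom row, transcripts raised by growth factor and ERK signalling, has medians of −0.48 when dorsomorphin was added and −0.92 from PBS to BMP2+DM.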

How the data were processed

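Each library's file, as the authors deposited it, holds raw counts of reads by gene symbol. The tools named are FastQC, Trimmomatic, STAR, HTSeq and DESeq2, with the build mm10, per the submitters' processing notes. No versions, gene annotation, strand setting or read layout are given there. The summary lines of each file, 53.8% to 54.2% of its total, name no gene and were left out; 49.7% to 50.1% of each total was assigned to no feature.

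The edgeR 4.0.16 filter filterByExpr (minimum count 10, minimum total count 15) kept 14378 genes. Group means were fitted with TMM factors and no covariate (3 residual degrees of freedom), using the quasi-likelihood F test, Benjamini-Hochberg adjustment and a threshold of 0.05, in R 4.3.3. A standard error is the size of the log2 fold change over the root of its F value, and intervals are 95%. The test was checked on simulated data. DESeq2 1.42.0 was 1 alternative; others changed scaling, filter, block or libraries. Within groups, replicates varied beyond sampling noise (chi-square per degree of freedom 3.63 to 4.39). Positions and exon lengths come from GENCODE vM21, and 97.5% of symbols were found there. The genes and lists were chosen with earlier results of these data known. Promoter windows come from RefSeq. All 10 genes are named. Of each pathway list, up to 3 called genes with the smallest p per comparison are named, and of each marker list up to 2. The other ligand genes, Adam10 and Adam17 are named besides. Some marker genes are not reported here.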

Additional observations from a re-analysis of the deposited data

How the results depend on the processing

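Over 13 alternatives for each of 27 changes of the tested genes, 313 of 351 values kept direction and side of the threshold, 22 lost and 4 gained a call, and 12 turned sign; no called change turned. Areg is limited by its depth, and Btc also by replicates that differed beyond counting error. Calls within the family in BMP2 against PBS numbered 3, 1 with DESeq2 and 0 without PBS 1 and BMP2 1, and 0 to 3 with 1 library left out. In BMP2+DM against BMP2 they numbered 2, and 0 without PBS 1 and BMP2 1. Over the 5 lists, calls in BMP2 against PBS numbered 11, 17 with no low-count filter and 3 without PBS 1 and BMP2 1, and 7 to 16 with 1 library left out. In BMP2+DM against BMP2 they numbered 18, with 6 and 10 to 14 in the last pair of settings, and in BMP2+DM against PBS 38, with 16 and 20 to 37. Over all genes the 3 comparisons called 2277, 1255 and 3007; without PBS 1 and BMP2 1 they called 574, 313 and 1388. The lowest counts with 1 library left out were 1318 (without PBS replicate 2), 670 (without BMP2 replicate 1) and 1827 (without PBS replicate 2). Fewer libraries enter these fits, and without PBS 1 and BMP2 1 the comparison of BMP2 against PBS sets 1 library against 1. From raw counts, the Erbb3 share rose by 6.68 percentage points from PBS to BMP2+DM in place of 8.21.

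The sign turned for uncalled changes only, and the cause was not tested. With 1 library left out, log2 fold changes ran as follows. In BMP2 against PBS, Erbb4 ran from −0.067 (without BMP2 replicate 1) to 0.36. In BMP2+DM against BMP2, Erbb2 ran from −0.027 (without BMP2 replicate 1) to 0.14, Erbb4 from −0.40 to 0.036 (without BMP2 replicate 1), and Btc from −0.13 (without BMP2+DM replicate 1) to 1.05. In BMP2+DM against PBS, Erbb4 ran from −0.15 to 0.072 (without BMP2+DM replicate 2), Egfr from −0.026 (without PBS replicate 1) to 0.17, and Btc from −0.46 (without BMP2+DM replicate 1) to 0.72. Without PBS 1 and BMP2 1, Erbb4 was −0.048 and Btc 0.13 in BMP2 against PBS, Erbb2 −0.027 and Erbb4 0.035 in BMP2+DM against BMP2, and Egfr −0.026 in BMP2+DM against PBS.

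The labels do not say that replicate numbers pair the libraries, and same-numbered libraries did not deviate together (correlations across genes of −0.04 to 0.02, and of −0.03 to 0.08 over genes with a mean log2 CPM over 2). With replicate number as a block, calls within the family stayed at 3, 2 and 6, and calls over all genes were 2261, 1226 and 2960; the block moved 1 list count by over 1.5 times, negative regulators in BMP2+DM against BMP2, from 1 to 2.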
